A study of Mus musculus with 6 samples.

Results

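The 35 genes described here encode HCF1 and subunits of chromatin complexes that bind O-GlcNAc transferase (OGT) or carry its sugar mark. Their RNA was measured in ileal epithelial cells of control and Ogt knockout mice. They were chosen by gene symbol, without a threshold on any measured value, from the 22274 genes of the deposited table. The set holds the HCF1 proteins, the NSL complex, PR-DUB with the FOXK factors, the TET dioxygenases, SIN3 with its histone deacetylases, the PRC2 core, COMPASS and NCoR. All 35 were found by Ensembl identifier, and all 35 had enough counts to be tested.

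OGT attaches single N-acetylglucosamine residues to serine and threonine of nuclear and cytoplasmic proteins. HCF1, the product of Hcfc1, is a scaffold that brings histone-modifying enzymes to promoters, and OGT both glycosylates it and cuts it into the fragments of the mature protein. OGT is also found with the acetyltransferase complex NSL, the deubiquitinase complex PR-DUB, the TET enzymes that oxidise methylcytosine, and the SIN3 corepressor. In the intestine such complexes set which genes are open as crypt stem cells divide and their daughters become enterocytes and secretory cells.

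The series holds 3 control and 3 Ogt knockout RNA-seq libraries of epithelial cells taken from the ileum. Knockout mice carried floxed Ogt and Olfm4-CreER, a tamoxifen-inducible recombinase driven from a gene of crypt stem cells, and the controls carried the floxed allele. Tamoxifen was given at 2 months of age over 3 days, and tissue was taken on day 10. No driver is given for the controls, and the treatment text does not say whether they received tamoxifen, and the effects of driver, recombinase, drug and Ogt loss cannot be told apart. Whether each library is 1 animal is not stated, and p-values therefore describe the spread among these libraries, which may be technical.

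Libraries held 14389429 to 18076479 estimated counts, and 14005 genes passed the filter on low counts. The 4 epithelial marker genes Epcam, Cdh1, Krt8 and Krt20 summed to between 10900 and 16000 CPM, counts scaled to library depth, in the 6 libraries, and 5 enterocyte markers to between 14900 and 26800 CPM, with 2 of 5 lower by the test (Fabp1 at -1.67 and Fabp2 at -0.78). Markers of other cells were present too: 486 to 1830 CPM for 3 B and plasma cell genes, 84.4 to 175 CPM for 5 T cell genes (Trdc higher by the test, at 0.99) and 632 to 1690 CPM for 4 muscle genes, with overlapping groups. Knockout 1 stood apart, with Cd79a at 5.25 CPM (34.9 to 40.6 in the others), Ighm at 10.9 (87.3 to 127) and Ptprc at 35.9 (88.1 to 103). Control 1 stood below the other controls in muscle genes (742 against 1650 and 1690 CPM) and enterocyte markers (16600 against 26800 and 24500 CPM). Proliferation markers, 7 genes, summed to 256 CPM in control 2 and to between 436 and 611 CPM in the other libraries, with Birc5 higher by the test (0.66), and Paneth cell markers to 169 CPM in control 2 and between 918 and 2160 CPM in the others. Fibroblast markers stood at 256 to 359 CPM in control and 365 to 425 CPM in knockout libraries, with 2 of 5 higher by the test, and tuft cell markers at 66.5 to 69.7 against 10.6 to 14.2 CPM, with 4 of 4 lower. The part of these cell types in the results that follow was not tested. In bulk RNA, fewer cells of a type and less RNA per cell cannot be told apart.

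The targeted gene was low but still detected in each library labelled knockout. Ogt stood at 140, 127 and 128 CPM in the control libraries and at 48.5, 43.0 and 36.0 CPM in the knockout libraries, a log2 fold change of -1.63 ± 0.13 (SE; adjusted p = 0.00121 by the quasi-likelihood test of edgeR, with Benjamini-Hochberg adjustment over all tested genes). Oga, which encodes the enzyme that removes the same sugar, fell by 1.47 ± 0.14 on the log2 scale.

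Hcfc1 was the member with the largest change. It stood at 67.2, 55.3 and 66.2 CPM in control libraries and at 165, 192 and 185 CPM in knockout libraries, so that the lowest knockout library lay far above the highest control. The mean went from 62.9 ± 6.62 to 181 ± 14 CPM (SD, n = 3 each), a 2.88-fold rise (log2 fold change 1.53 ± 0.12, adjusted p = 0.00121). In FPKM, a level scaled for transcript length as well as depth, the mean was 11.3 in control and 31.9 in knockout libraries. Of the 14005 tested genes, 120 had a larger log2 fold change than Hcfc1. Most of those had low counts in control libraries: of the 8673 genes with at least 10 CPM in control libraries, 8 had a larger one. Hcfc1 kept its call under each of the 9 other settings tried and after leaving out each library in turn, with log2 fold changes of 1.43 to 1.66 and adjusted p up to 0.0129. Hcfc1 and Ogt both lie on chromosome X, and the summed level of 4 Y-linked genes was 151 to 183 CPM across all 6 libraries.

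Hcfc2, the autosomal paralog of Hcfc1, had a smaller estimate. It stood at 16.1, 15.3 and 14.5 CPM in control and 21.3, 20.6 and 18.2 CPM in knockout libraries. The groups did not overlap, but the gene did not pass the test (0.39 ± 0.13, adjusted p = 0.0711). It passed on FPKM values (adjusted p = 0.0354), with library size alone (0.0263) and without control 1 (0.0442). In the other settings and fits without 1 library it did not pass (adjusted p up to 0.181).

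Promoter windows of RefSeq (GRCm38.p6, 250 bases before to 50 bases after a transcript start) were available for 29 of the 35 genes, 38 windows in all since some genes have several, and were searched on both strands for 8 short motifs. The Hcfc1 window is shown because it belongs to the member that changed most. Its bases before the start, chrX:73966358-73966607 on the minus strand, are printed 5′ to 3′ in gene orientation. Capitals mark a YY1 motif (AAGATGGCG) and an ETS motif (CCGGAAG), which do not overlap.
Hcfc1 upstream: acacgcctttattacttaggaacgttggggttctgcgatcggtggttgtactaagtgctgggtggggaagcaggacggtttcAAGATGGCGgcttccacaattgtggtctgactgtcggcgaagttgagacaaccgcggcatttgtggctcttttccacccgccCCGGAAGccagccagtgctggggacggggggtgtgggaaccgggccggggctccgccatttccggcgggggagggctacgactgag

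The YY1 motif occurred again just after the start of Hcfc1, and it was found in 3 other members, Hcfc2, Kansl2 and Ncor1, at nearly the same distance from the start. YY1 is a zinc finger factor that also binds HCF1 and BAP1. The 30-base windows around these downstream sites are chrX:73966313-73966342 (minus strand) for Hcfc1, chr10:82699132-82699161 (plus strand) for Hcfc2, chr15:98534220-98534249 (minus strand) for Kansl2 and chr11:62457287-62457316 (minus strand) for Ncor1, with the motif in capitals.
Hcfc1: aggcggctcAAGATGGCGgctcccagagcc
Hcfc2: ggggttgggAAGATGGCGgctcccagcctc
Kansl2: gtgggggaggtAAGATGGCGccgtgccggg
Ncor1: ggttgaggcAAGATGGCGgctaaggtggcg

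The first motif base lay at +25 in Hcfc1, +28 in Hcfc2, +32 in Kansl2 and +26 in Ncor1, with the farther Hcfc1 copy at -168. The motif was in 4 of the 38 member windows (10.5%), 1 for each of the 4 genes, and in 1.40% of all 32851 windows. Of these 4 members Hcfc1 passed the test. The ETS motif was in 6 member windows (15.8%), of Asxl1, Asxl2, Hcfc1, Kat8, Mcrs1 and Ncor1, and in 8.86% of all windows. The E-box CACGTG was in 4 member windows (10.5%, against 7.15%) and the box CCAAT in 14 (36.8%, against 37.4%). The other 4 motifs, of NRF1 (CGCATGCG), CREB (TGACGTCA), E2F (TTTCGCGC) and the THAP11 and ZNF143 element (ACTACAATT), were in 0 member windows and in 1.87%, 1.79%, 0.323% and 0.393% of all windows. The member windows are richer in CpG than the rest: the median was 26.5 CpG and 64.3% GC, against 7 CpG and 52.7% GC over all windows. Yy1 itself stood at 0.31 ± 0.09 (adjusted p = 0.0519), from 94.7 to 118 CPM. It passed under 7 of the 9 other settings, among them library size alone (adjusted p = 0.0145), and in 1 of the 6 fits without 1 library. A motif match is a description of the letters and shows no binding.

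Over the whole set, 7 of the 35 genes rose and 2 fell. That is 25.7% called, where 18.7% of all tested genes were called, 9.33% higher and 9.37% lower. The genes that rose were Hcfc1, Kat8, Dpy30, Wdr5, Eed, Cxxc1 and Sin3b, and those that fell were Tet3 and Kansl3. The median log2 fold change was 0.06 over the 35 genes and -0.05 over all tested genes. Most differences were small: 31 members differed by less than 1.5-fold, and Hcfc1 alone by at least 2-fold, the next being Kat8 at 0.86. With a 1.5-fold minimum added to the threshold, 3 members were higher (Hcfc1, Kat8 and Dpy30) and 0 lower, where 6.21% and 6.90% of all genes were. Leaving out 1 library changed the counts: without control 2 there were 3 members higher, without control 3 there was 1, without knockout 1 there were 2, and without knockout 2 or knockout 3 there was 1, with none lower in these 5 fits. Over all genes these 5 fits called, in the same order, 11.9%, 8.45%, 11.6%, 7.98% and 7.12%. Without control 1, 10 members were higher and 2 lower, where 23.2% of all genes were called. The split of calls over all genes depended on scaling: 1307 higher and 1312 lower became 2045 and 859 (14.6% and 6.13%) with library size alone, which moved the median of all genes from -0.05 to 0.09. On log2(FPKM + 1) values that median was 0.10 and the split of 11832 tested genes was 1946 and 738 (16.4% and 6.24%).

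**Figure D1:**
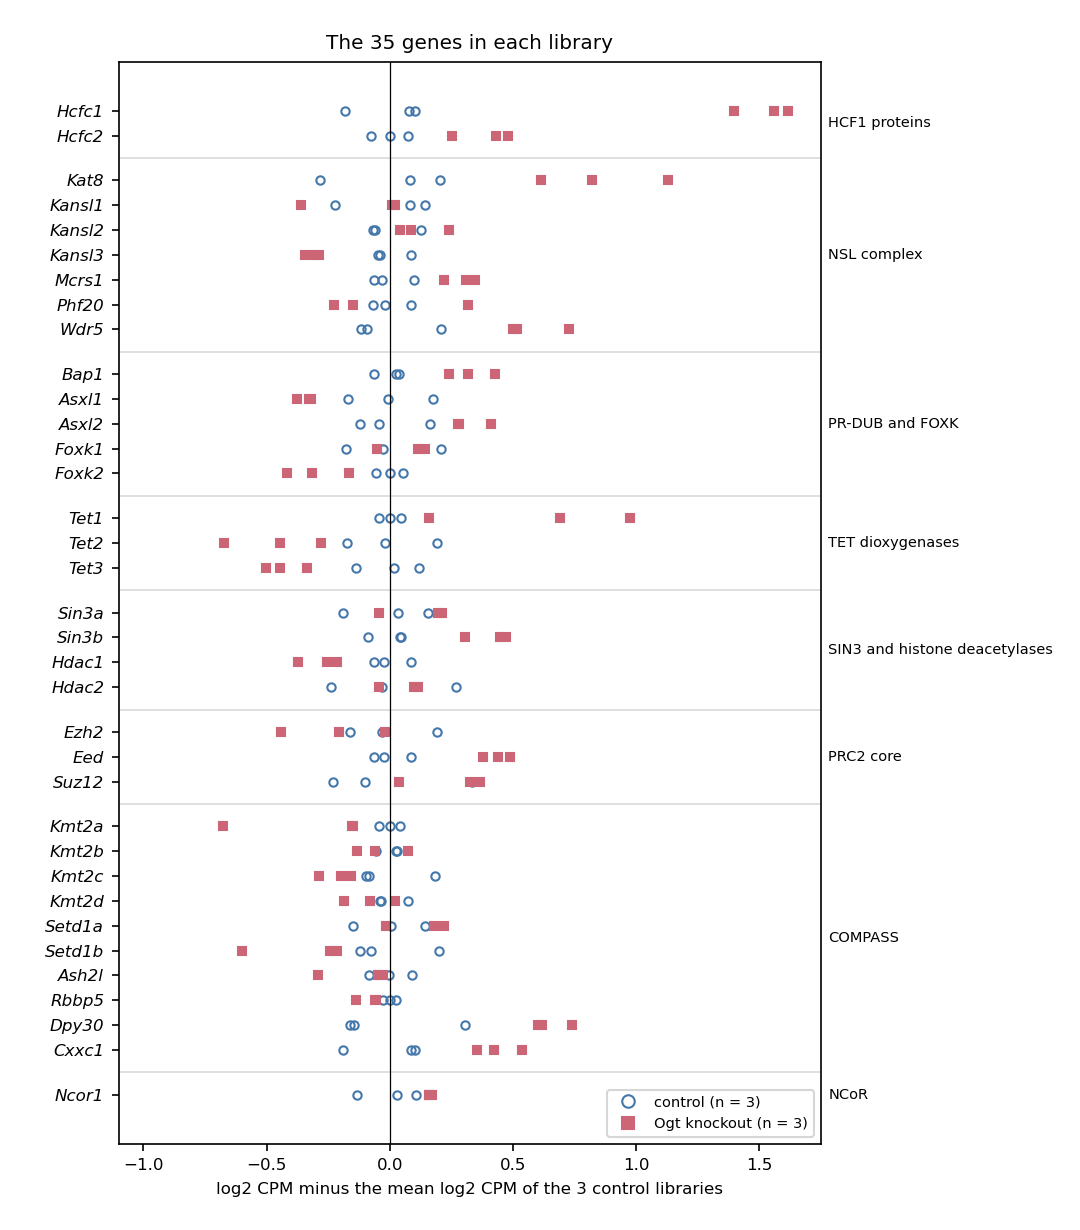
Log2 CPM of each of the 35 genes in each library, minus the mean log2 CPM of the 3 control libraries, with genes grouped by complex (open circles, control; filled squares, Ogt knockout). Hcfc1 stands apart at about 1.5, while most other genes lie within 0.5 of the control mean and 23 of the 35 have groups that do not overlap.

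Groups did not overlap for 23 of the 35 genes (65.7%), against 39.8% of all tested genes. Of these, 13 were higher and 10 lower in knockout libraries, where 19.6% and 20.2% of all genes were. These counts are on CPM and depend on scaling. In FPKM the groups of Asxl1, Hdac1, Kmt2a, Rbbp5, Setd1b and Tet1 overlapped, and no member that overlapped in CPM became separate. The share over all genes in FPKM was not counted. Among the 26 genes that did not pass, 14 had groups without overlap, and the smallest adjusted p was 0.0579 (Bap1). An unadjusted p under 0.05 was found for 17 of the 35 members, 8 of them among those 26, and for 34.0% of all tested genes. The SE of the log2 fold change was 0.09 to 0.35 with a median of 0.12, and Tet1, the scarcest, had the widest. The median deviation of the 35 genes from the control mean was small in each library, from -0.06 in control 2 to 0.11 in knockout 3 on the log2 scale, with no library in which the whole set was shifted.

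**Figure D2:**
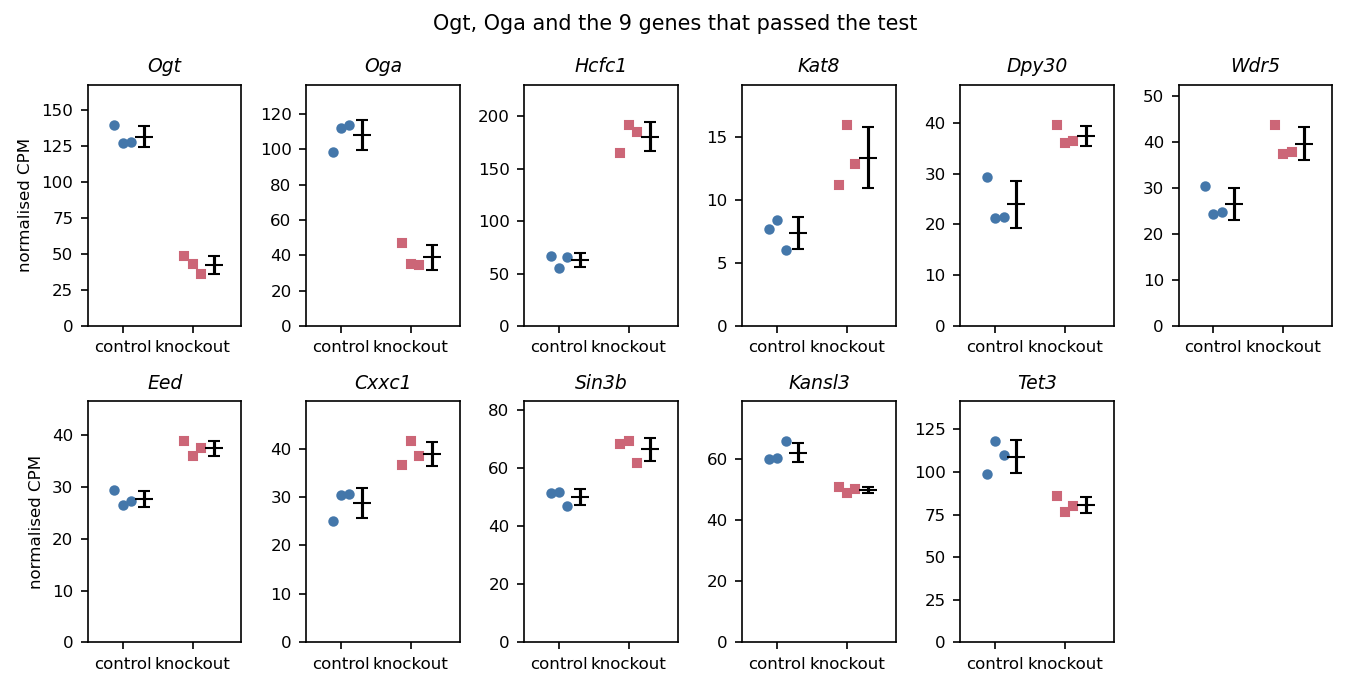
Normalised CPM of Ogt, Oga and the 9 members that passed the test in each library (circles, control; squares, Ogt knockout), with the mean and SD of 3 libraries beside them and each axis starting at 0. The 2 groups are separate in every panel, with Hcfc1 at 62.9 ± 6.62 against 181 ± 14 CPM and Ogt at 132 ± 7.2 against 42.5 ± 6.26 CPM.

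The NSL complex joins the acetyltransferase KAT8 to a set of KANSL scaffolds and the adaptor WDR5. Its enzyme gene Kat8 rose, the adaptor Wdr5 rose and the scaffold Kansl3 fell, while Kansl1, Kansl2, Mcrs1 and Phf20 did not pass. Kat8, which acetylates histone H4, stood at 7.73, 8.42 and 6.0 CPM in control and 11.2, 16.0 and 12.9 CPM in knockout libraries. Every knockout library lay above every control library, and the log2 fold change was 0.86 ± 0.20 (adjusted p = 0.0243). The call was lost without control 3, knockout 2 or knockout 3 (adjusted p = 0.0777, 0.0947 and 0.0775). Exons of Kat8 share 122 of 2891 bases with Prss8 on the opposite strand in GENCODE M21, and the library kit does not mark strand. Prss8, a membrane-anchored epithelial protease gene, stood at 0.31 (adjusted p = 0.504), at 18.6 CPM in control and 23.1 in knockout libraries.

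Wdr5 encodes a beta-propeller shared by NSL and COMPASS, and it is counted here with NSL. Its values were 30.5, 24.4 and 24.8 CPM in control and 43.8, 37.4 and 37.8 CPM in knockout libraries (0.58 ± 0.13, adjusted p = 0.0215). The call held without control 1 and was lost without control 2, control 3 or any 1 knockout library (adjusted p of 0.0555 to 0.0696). Kansl3 went the other way, from 60.2, 60.5 and 65.9 CPM to 50.9, 49.0 and 50.3 CPM (-0.31 ± 0.09, adjusted p = 0.0464). Although its groups were separate, its call was lost in each fit that left out 1 library (adjusted p of 0.0693 to 0.189) and in 7 of the 9 other settings, with p up to 0.276. Of the remaining subunits, Mcrs1 stood at 0.29 (adjusted p = 0.0684) without overlap, at 45.2, 46.2 and 50.6 against 55.1, 60.1 and 58.6 CPM. Mcrs1 passed with library size alone (adjusted p = 0.0213) and on FPKM values (up to 0.0258). It passed in no other setting and in no fit without 1 library (up to 0.187). Kansl1 at -0.11, Kansl2 at 0.13 and the reader protein gene Phf20 at 0.00 had overlapping groups.

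PR-DUB is the complex in which the deubiquitinase BAP1 works with an ASXL cofactor and is brought to DNA by FOXK1 or FOXK2. None of its 5 genes passed the test, though 4 had separate groups, 2 higher and 2 lower. At an unadjusted p under 0.05, which 34.0% of all genes had, there were also 4. DESeq2 called 1 (Bap1) and limma voom 0, where these tools called 22.9% and 18.7% of all genes. Bap1, the catalytic subunit, stood at 32.5, 34.8 and 34.6 CPM in control and 42.3, 40.1 and 45.7 CPM in knockout libraries (0.33 ± 0.10, adjusted p = 0.0579). It passed with DESeq2 size factors (adjusted p = 0.0498), with DESeq2 itself (0.0428), with library size alone (0.0206) and on FPKM values. It did not pass with limma voom, the unfiltered fit, the 1 CPM filter or the replicate block, nor without any 1 library (0.06 to 0.187).

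The 2 cofactor genes pointed in opposite directions, and neither passed by itself. Asxl1 was at 40.5, 31.9 and 35.7 CPM in control and 28.6, 27.6 and 28.7 CPM in knockout libraries, while Asxl2 was at 43.6, 35.8 and 37.8 against 47.3, 51.8 and 47.2 CPM. The log2 fold changes were -0.35 ± 0.12 and 0.32 ± 0.11 (adjusted p = 0.0814 and 0.0815). Asxl2 did pass with library size alone (adjusted p = 0.0340) and in the fit that left out control 1 (0.0197), but in no other (up to 0.221). Foxk2, one of the forkhead recruiters, stood at -0.30 ± 0.12 (adjusted p = 0.112), with 31.4, 32.6 and 30.2 against 28.0, 23.5 and 25.2 CPM. Foxk1, the other, was at 0.06 with overlapping groups.

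The TET dioxygenases oxidise methylcytosine, and OGT binds TET2 and TET3. Tet3 had the highest level per length of the 3 genes, 9.69 FPKM in control libraries, and fell. It went from 98.8, 118 and 110 CPM in control to 86.0, 76.6 and 79.8 CPM in knockout libraries (-0.43 ± 0.11, adjusted p = 0.0272). The call was lost with library size alone (adjusted p = 0.0658), on FPKM values (up to 0.113) and without any 1 library other than control 1 (0.0501 to 0.105). Tet2 had a similar estimate but more spread, at 25.6, 28.5 and 33.0 against 23.8, 18.1 and 21.2 CPM (-0.47 ± 0.15, adjusted p = 0.0683). Tet2 passed without control 1 (adjusted p = 0.0489) and in no other setting or fit (up to 0.239). Both genes were lower in each knockout library than in any control library. Tet1 was near 1 CPM throughout, at 0.913, 0.970 and 0.941 in control and 1.52, 1.05 and 1.85 CPM in knockout libraries (0.64 ± 0.35, adjusted p = 0.229).

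SIN3A and SIN3B are alternative scaffolds that hold the deacetylases HDAC1 and HDAC2. Sin3b rose, and Sin3a, Hdac1 and Hdac2 did not pass. Sin3b stood at 51.5, 51.7 and 47.0 CPM in control and 68.2, 69.3 and 61.9 CPM in knockout libraries, without overlap (0.41 ± 0.10, adjusted p = 0.0243). Leaving out control 3 or any 1 knockout library ended that call, with adjusted p of 0.0530 to 0.0884. Sin3a, the paralog reported to bind OGT, overlapped between groups at 33.9, 29 and 36.9 against 32.1, 38.4 and 37.9 CPM (0.12 ± 0.13). Hdac1 was at 112, 109 and 121 CPM in control and 95.5, 87.9 and 98.1 CPM in knockout libraries (-0.28 ± 0.10, adjusted p = 0.0811), separate but short of the threshold. Hdac2 differed by 0.04 ± 0.14.

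PRC2 deposits the methyl mark of Polycomb repression through the enzyme EZH2, with EED and SUZ12 as obligate partners. Eed rose, and Ezh2 and Suz12 did not pass. Eed, the subunit that reads the mark, stood at 29.4, 26.5 and 27.2 CPM in control and 38.8, 36.0 and 37.5 CPM in knockout libraries (0.43 ± 0.10, adjusted p = 0.0252). Its call held without control 1 and was lost without any 1 of the other libraries (adjusted p of 0.0618 to 0.0869). Ezh2 had 28.7, 22.5 and 24.6 against 21.8, 18.5 and 24.8 CPM (-0.22 ± 0.15, adjusted p = 0.360), and its groups overlapped. Suz12 had 83.0, 56.2 and 61.4 against 84.9, 67.6 and 82.7 CPM (0.23 ± 0.16, adjusted p = 0.360), and control 1 was as high as the knockout libraries. Without control 1, Suz12 passed at 0.46 (adjusted p = 0.0384).

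COMPASS complexes methylate histone H3 at active promoters and enhancers. Of their 10 genes here, without Wdr5, 2 rose, Dpy30 and Cxxc1, and none of the 6 methyltransferase genes passed. Dpy30, a core subunit that stimulates the enzymes, stood at 29.3, 21.2 and 21.4 CPM in control and 39.6, 36.0 and 36.4 CPM in knockout libraries (0.64 ± 0.15, adjusted p = 0.0237). Cxxc1, which binds unmethylated CpG and guides the SETD1 enzymes, stood at 25.1, 30.4 and 30.7 against 36.6, 41.5 and 38.4 CPM (0.43 ± 0.12, adjusted p = 0.0421). Both were higher in each knockout library than in any control library. Both calls held without control 1 and were lost without any 1 of the other libraries, with adjusted p of 0.0625 to 0.0793 for Dpy30 and 0.0572 to 0.137 for Cxxc1.

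The enzymes themselves ranged from -0.35 to 0.13. Setd1b was at 22.3, 23.0 and 27.9 CPM in control and 16.0, 20.5 and 20.9 CPM in knockout libraries (-0.35 ± 0.16, adjusted p = 0.157), and Setd1a at 0.13 with overlap. Kmt2a, the founding MLL gene, was at 56.3, 58.1 and 59.8 CPM in control and 36.3, 52.2 and 52.3 CPM in knockout libraries, where knockout 1 lay well below the other 2 (-0.31 ± 0.15, adjusted p = 0.184). Kmt2c at -0.22 had separate groups, and Kmt2b at -0.04 and Kmt2d at -0.08 did not. The core subunits Ash2l at -0.12 and Rbbp5 at -0.08 did not pass. At an unadjusted p under 0.05, which 34.0% of all genes had, the 2 called genes were the only ones of the 10. In GENCODE M21, 51.8% of the exon bases of Setd1a are shared with Gm49388 on the same strand, which had 0 counts in all libraries, so its share of the Setd1a reads cannot be told apart.

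NCoR is a corepressor of nuclear receptors that holds the deacetylase HDAC3. Ncor1, its scaffold, stood at 196, 219 and 231 CPM in control and 240, 240 and 242 CPM in knockout libraries (0.16 ± 0.10, adjusted p = 0.317). The groups were separate and the knockout values almost equal, with means of 215 ± 17.7 and 241 ± 1.23 CPM (SD). The difference did not pass the test.

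**Figure D3:**
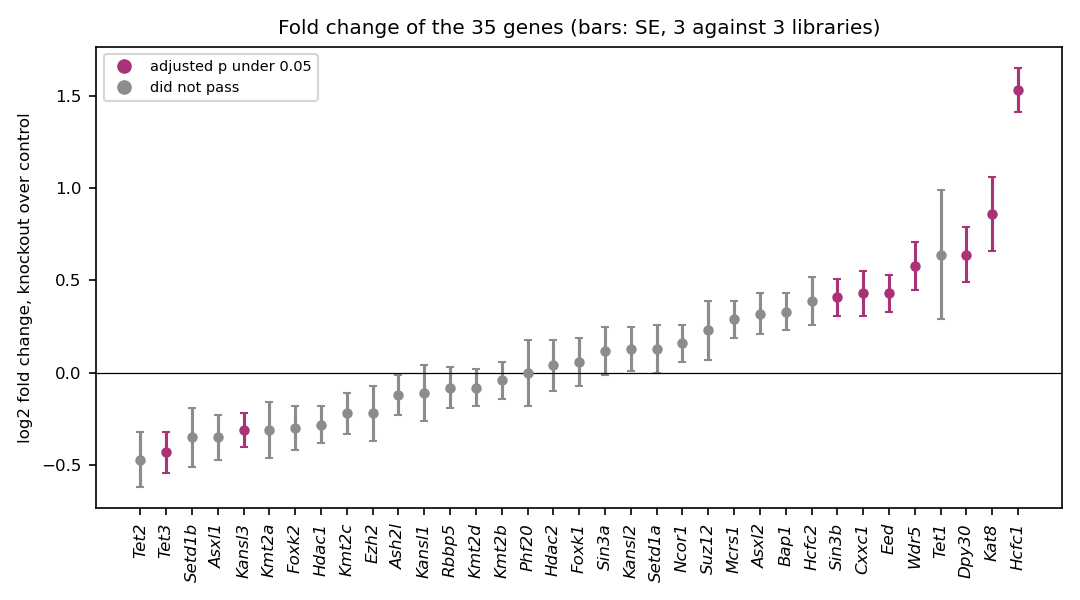
Log2 fold change of each of the 35 genes, knockout over control, ordered from lowest to highest, with bars of 1 SE from 3 against 3 libraries (purple, adjusted p under 0.05; grey, did not pass). The values run from -0.47 for Tet2 to 1.53 for Hcfc1, and the wide bar of 0.35 belongs to Tet1.

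Levels between genes were compared only per length, in FPKM over the control libraries. Hdac1 was highest at 53.4 ± 2.69, followed by Ncor1 at 46.2 ± 2.21, Sin3b at 41.4 ± 2.01, Dpy30 at 31.5 ± 6.83 and Mcrs1 at 24.0 ± 1.11 FPKM. Among these, the ranges of mean ± SD overlapped between Dpy30 and Mcrs1 and not between the other neighbours. Hcfc1 at 11.3 ± 1.22 FPKM lay within 1 SD of Kmt2d at 11.3 ± 2.52 and Kmt2c at 10.8 ± 0.288 FPKM in control libraries. Its knockout mean of 31.9 FPKM was near the control level of Dpy30. At the low end were Setd1b at 2.73 ± 0.346, Phf20 at 2.18 ± 0.117 and Tet1 at 0.113 ± 0.0503 FPKM.

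Paralogs that occupy the same seat in a complex were compared as a log2 ratio of CPM within each library, which removes the library scaling. Groups were separate for 5 of 10 pairs, where 39.8% of all single genes had separate groups in CPM. With 3 against 3 libraries the exact two-sided permutation test cannot go below p = 0.10, which all 5 reached (0.20 adjusted over the pairs), so these are descriptions. The Hcfc1 to Hcfc2 ratio was 2.06, 1.86 and 2.19 in control and 2.95, 3.22 and 3.35 in knockout libraries. The Asxl1 to Asxl2 ratio was even in control, at -0.11, -0.17 and -0.08, and shifted toward Asxl2 in knockout libraries, at -0.73, -0.91 and -0.72. Its gap between groups was several times the spread within them, although neither gene passed by itself.

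The other separate pairs were closer. Hdac1 to Hdac2 had a mean of 1.38 ± 0.25 in control and 1.04 ± 0.01 in knockout libraries. Kmt2a to Kmt2b had 0.21 ± 0.07 and -0.07 ± 0.23, and Setd1a to Setd1b -0.03 ± 0.11 and 0.45 ± 0.29. The ratios of Foxk1 to Foxk2, Tet2 to Tet3, Sin3a to Sin3b, Ezh2 to Ezh1 and Kmt2c to Kmt2d overlapped. Tet2 to Tet3 hardly differed, with means of -1.91 and -1.95. With FPKM in place of CPM, the pairs of Hcfc1, Asxl1 and Hdac1 stayed separate, those of Kmt2a and Setd1a did not, and Sin3a to Sin3b became so (-2.56 ± 0.13 and -2.99 ± 0.20).

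**Figure D4:**
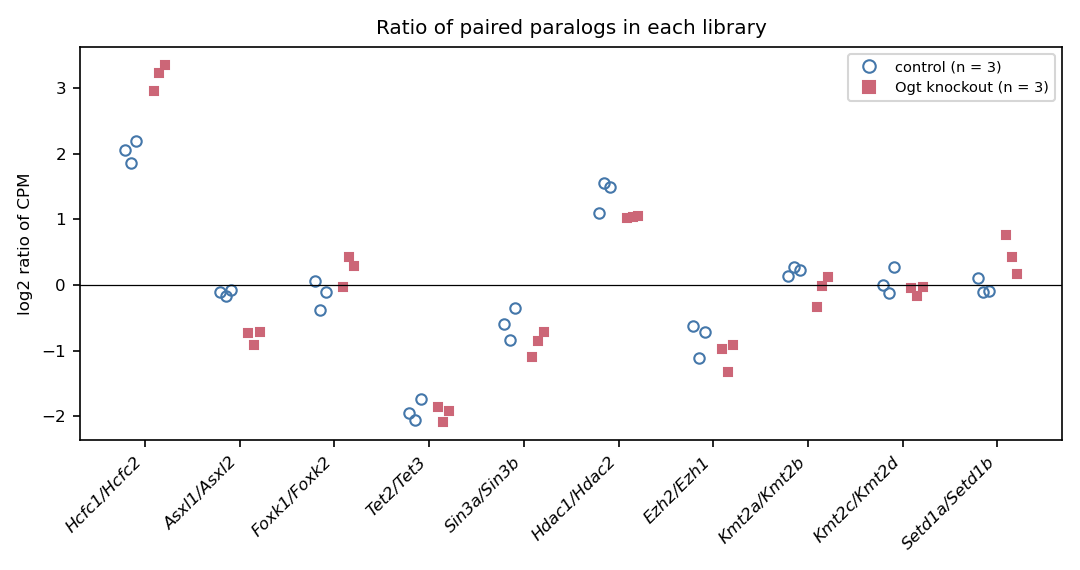
Log2 ratio of the CPM of paired paralogs in each library (open circles, control; filled squares, Ogt knockout). The Hcfc1 to Hcfc2 ratio moves from a mean of 2.03 to 3.18 and the Asxl1 to Asxl2 ratio from -0.12 to -0.78, while Tet2 to Tet3 stays near -1.9.

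The deposited counts and FPKM values of a gene together give the transcript length that the authors' quantification used in that library. For 5 of the 35 genes these lengths did not overlap between groups (14.3%), near the 12.4% of the 13932 tested genes with a length in all libraries. For Hdac1, Hdac2 and Dpy30 the mean difference was under 1%. For Eed the implied length was 1526, 1534 and 1556 bases in control and 1420, 1418 and 1468 bases in knockout libraries, a difference of -6.72%. For Sin3b it was 1170, 1166 and 1130 against 1104, 1115 and 1098 bases (-4.31%), near the short end of its GENCODE M21 transcripts, which run from 493 to 4115 bases. The Hcfc1 lengths overlapped, at 5200, 4820 and 6018 against 5270, 6086 and 6514 bases, below the longest annotated transcript of 8262 bases. Which isoforms make up these values was not tested.

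Other subunits and partners of the same complexes, 103 listed and 101 tested, gave 7 genes higher and 7 lower (13.9%, where 18.7% of all genes were called), with a median log2 fold change of -0.04. Among 16 partners of HCF1, 2 fell and none rose by edgeR or limma voom, while DESeq2 also called Gabpa, Yy1 and Zbtb17 higher. Ppargc1a, the coactivator PGC-1alpha of mitochondrial gene programs, which OGT reaches through HCF1, fell from 29.2 ± 8.72 to 11.6 ± 0.961 CPM (-1.34 ± 0.23, adjusted p = 0.00819). Thap3, an HCF1-binding zinc finger gene, fell by 0.86 on the log2 scale (adjusted p = 0.0290), a call lost without control 3, knockout 2 or knockout 3 (0.101 to 0.119). Hcfc1r1, a regulator of HCF1 location and the most abundant of the 16, stood at -0.37 (adjusted p = 0.0636).

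Of 8 NSL and MSL partners, 2 were called, where 18.7% of all genes were (9.33% higher and 9.37% lower). These were Msl3 and Msl1, subunits of the other KAT8 complex, and both fell. Whether so short a list leans in 1 direction was not tested. Msl3 went from 38.3 to 26 CPM (-0.56 ± 0.11, adjusted p = 0.0141) and Msl1 from 75.6 to 54.3 CPM (-0.48 ± 0.10, adjusted p = 0.0178). Both calls were lost without control 3, knockout 2 or knockout 3 (adjusted p of 0.0521 to 0.0778), and that of Msl1 also without control 2 (0.0568). Phf20l1 stood at -0.34 (adjusted p = 0.0795).

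In the Polycomb lists, Pcgf6 was the only 1 of 23 PR-DUB and PRC1 genes to pass (4.35%, where 18.7% of all genes were called). Pcgf6, a subunit of the variant PRC1 with MAX and MGA, rose from 10.8 ± 2.37 to 23.7 ± 2.18 CPM (1.13 ± 0.19, adjusted p = 0.00700). Of 8 PRC2 accessory genes, 2 rose and 1 fell, 37.5% of a short list against the same 18.7%. Phf1, a Polycomb-like subunit, fell from 31.4 ± 3.71 to 13.8 ± 1.39 CPM (-1.18 ± 0.14, adjusted p = 0.00288), whereas its paralog Mtf2 rose (0.50 ± 0.14, adjusted p = 0.0425). Aebp2, which marks the JARID2 form of PRC2, rose from 43.4 ± 5.17 to 69.9 ± 3.46 CPM (0.69 ± 0.11, adjusted p = 0.00716). Pcgf6, Phf1 and Aebp2 kept their calls under the 9 other settings and the 6 fits without 1 library, and Mtf2 lost it without any 1 library other than control 1 (0.0769 to 0.12). Cbx8 at -0.84 and Phc2 at -0.29 did not pass, though Cbx8 did with the replicate block (adjusted p = 0.0428).

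The 11 genes listed for TET and DNA methylation held 3 that rose and 1 that fell by edgeR. That is 36.4% of a short list, where 18.7% of all genes were called. DESeq2 also called Dnmt3a lower. The genes of the methyl-CpG binding domain family were divided: Mbd1 (0.61 ± 0.11, adjusted p = 0.00964) and Mbd3 (0.62 ± 0.13, 0.0163) rose, while Mbd2 (-0.45 ± 0.11, 0.0228) fell. Tdg, the glycosylase that removes the products of TET, rose by 0.36 (adjusted p = 0.0314). Mbd1 kept its call in every setting and fit without 1 library. The other 3 lost theirs when single libraries were left out, Mbd2 also with library size alone (adjusted p = 0.0768). The libraries concerned were control 3 and knockouts 1 and 2 for Mbd3 (0.0507 to 0.0657), control 1, control 3 and knockouts 2 and 3 for Mbd2 (0.0529 to 0.0901), and all but control 1 for Tdg (0.0538 to 0.104).

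Among 18 SIN3 subunits, Sap18 rose (0.68 ± 0.15, adjusted p = 0.0171), a call lost without knockout 1 or knockout 2 (0.0516 and 0.0696). It was the only call of the list, 5.56% where 18.7% of all genes were called. Suds3 at 0.32 (adjusted p = 0.0540) and Kdm5a at 0.37 (0.0534) did not pass, although each was called in 6 of the 9 other settings, DESeq2 included (0.0227 and 0.0333), and Morf4l1, the most abundant, stood at -0.01. Of 11 COMPASS subunits, 1 fell and none rose (9.09% called, against 18.7% of all genes). This was Kdm6a, the X-linked demethylase UTX, at 46.1, 40.8 and 48.0 CPM in control and 32.1, 31.4 and 32.2 CPM in knockout libraries (-0.49 ± 0.10, adjusted p = 0.0167). Its Y-linked paralog Uty was lower too, at 39.2, 32.5 and 35.2 against 22.7, 24.2 and 28.1 CPM (-0.51 ± 0.13, adjusted p = 0.0312). The Kdm6a call was lost without control 3, knockout 2 or knockout 3 (0.0647 to 0.0824), with library size alone (0.0547) and on FPKM values (0.172), and the Uty call without any 1 of the 6 libraries (0.0536 to 0.115). Men1 at -0.53 (called by DESeq2 and without control 1), Kdm5b at -0.31 and Wdr82 at -0.17 did not pass. None of 6 listed NCoR genes passed by edgeR, DESeq2 or limma voom. Of them, 3 had an unadjusted p under 0.05, which 34.0% of all genes had: Tbl1xr1 at -0.33, Hdac3 at 0.26 and Kdm4a at -0.24. Hdac3 did pass with library size alone (adjusted p = 0.0253) and on FPKM values (up to 0.0251).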

How the data were processed

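Per the labels' protocols, Trizol was used for extraction and the NEBNext Ultra RNA kit, which keeps no strand, for library preparation. The submitters' processing notes name the builds GRCm39 and mm39. Aligner, counter and annotation release were not given in the sources used here. Per the file headers, the authors' values are estimated counts and FPKM per gene and library. Between 7.68% and 8.09% of the estimated counts per library were not whole (tolerance 0.001), but those of the 35 genes were, and all counts were rounded. The authors scaled the deposited FPKM values for length and depth, as the term implies. Names came from GENCODE M21 by Ensembl ID for 22219 rows, from the deposited table for 43, and 12 had none.

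Genes were filtered with filterByExpr (minimum count 10, minimum total 15), scaled by TMM and compared by the robust quasi-likelihood test of edgeR 4.0.16 in R 4.3.3, with Benjamini-Hochberg adjustment over 14005 genes and a threshold of 0.05. CPM values use the TMM factors, by which 3 counts equal 0.1586 to 0.2072 CPM. On simulated counts for these 14005 genes the test found 52 of the 100 genes given a 2-fold change and 95 of those given a 4-fold one, with 18 false calls, and made 2 calls when none was changed. No library pair agreed within sampling noise (mean chi-square of at least 20.7 per gene, against 1). Control 1 gave 83.1 and 63.3 with controls 2 and 3, and 70.2, 108 and 98.9 with knockouts 1, 2 and 3. Controls 2 and 3 gave 35.8 together, and pairs of knockouts 20.7 to 29.1. The alternatives scaled by library size alone or DESeq2 size factors, tested with DESeq2 1.42.0 or limma voom 3.58.1, dropped the filter or asked for 1 CPM in 3 libraries, added a block for replicate number, left out each library, applied limma to log2(FPKM + 0.1) or log2(FPKM + 1) where 3 libraries reached 1 FPKM, or asked for 1.5-fold.

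The members, the lists of related genes and the markers were chosen with earlier results of these data known. Named genes are all members, Ogt, Oga, and per related list the 3 with the smallest adjusted p and the highest mean FPKM. Prss8, Uty, Tdg, the motif letters and the genes named in the closing text were picked with their values in view. Xist was not analysed here, and some genes of these complexes are not reported here. Promoter sequences are from RefSeq (GRCm38.p6), and no coordinates of the deposited build were used.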

Additional observations from a re-analysis of the deposited data

How the results depend on the processing

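Hcfc1, Ogt and Oga kept their direction and call under every alternative run. Over the 35 genes and all alternatives, 436 results kept their direction and side of the threshold, 48 lost the call, 16 gained it and 23 changed sign. The cause was not tested. A left-out library means fewer samples, and 23.2% of all genes were called without control 1 but 7.12% to 11.9% without any other. With all libraries it was 18.7%. Whether replicate numbers pair the libraries was not tested. Same-number correlations of deviations were 0.308, 0.289 and 0.0998, other pairs gave -0.303 to 0.0602, and each library correlated best with its own number. With the replicate block, 13 related genes and 2 element genes were higher, and no other count moved by over 1.5 times.

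With library size alone, 2045 genes were higher and 859 lower, of them 11 and 0 members, 16 related genes higher, and 4 and 13 genes with the element. DESeq2 size factors and DESeq2 gave 1 member lower each and 11 and 12 related genes higher, and limma voom and the unfiltered fit 1 member lower each. On log2(FPKM + 0.1) and log2(FPKM + 1), 724 and 738 genes were lower, 0 and 0 members lower, 14 and 15 related genes higher, and 6 and 6 element genes higher. A 1.5-fold minimum left 870 genes higher, 3 members higher and 0 lower, 3 related genes lower and 0 element genes higher. The shorter element gave 41 genes higher and 92 lower.

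Leaving out 1 library gave 549 to 1932 genes higher and 460 to 1372 lower, 1 to 10 members higher and 0 to 2 lower, 3 to 11 related genes higher and 2 to 8 lower, 0 to 6 element genes higher and 12 to 16 lower, and 5 to 8 separate paralog pairs.

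Signs changed only for estimates near 0. With library size alone Kansl1 was 0.03, Kmt2b 0.10, Kmt2d 0.059, Ash2l 0.015, Rbbp5 0.051 and Morf4l1 0.12. On log2(FPKM + 0.1) Kansl1 was 0.069, Kmt2b 0.10, Kmt2d 0.18, Rbbp5 0.11 and Morf4l1 0.12, and on log2(FPKM + 1) 0.063, 0.087, 0.16, 0.10 and 0.12. Phf20 was -0.008 with limma voom, -0.002 with the 1 CPM filter and -0.016 with the replicate block, and Morf4l1 0.005 with DESeq2 size factors and with DESeq2. Leaving out 1 library gave -0.18 to 0.011 for Kansl1, -0.18 to 0.10 for Phf20, -0.038 to 0.24 for Hdac2, -0.10 to 0.024 for Kmt2b and -0.033 to 0.031 for Morf4l1. Depth limits Tet1 most, at about 1 CPM.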

Other observations

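HCF1 is brought to many promoters by the zinc finger factors THAP11 and ZNF143, which share an element that begins ACTACAATT. These letters were searched on both strands of the RefSeq promoter windows after the test results had been seen, and longer and shorter letter forms had been tried, so the counts are descriptions with no test. None of the 38 member windows held it, while 0.393% of all 32851 windows did. Of 85 tested genes with the element, 20 fell (23.5%) and 1 rose (1.18%), where 9.37% and 9.33% of all tested genes did. Their median log2 fold change was -0.23 against -0.05 over all genes, and 64 of the 85 had a negative estimate. The element genes had a median of -0.15 without control 1 and -0.10 with library size alone, against -0.01 and 0.09 over all genes. On log2(FPKM + 0.1) and log2(FPKM + 1) it was -0.11 and -0.08, against 0.12 and 0.1 over all genes. Of 91 elements in these genes, 88 lay before the start, at a median of -86.

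Of the genes that fell, 4 are shown as examples chosen after their values were seen, with no theme implied for the 20. Chchd3 encodes a scaffold of mitochondrial cristae, Atp5d a subunit of ATP synthase, Uqcr10 a subunit of complex III and Mdh1 the cytosolic malate dehydrogenase. The 30-base windows, with the element in capitals and read along it, are chr6:33060392-33060421 (minus strand) for Chchd3, chr10:80142190-80142219 (plus) for Atp5d, chr11:4704376-4704405 (minus) for Uqcr10 and chr11:21571930-21571959 (plus) for Mdh1.
Chchd3: gagACTACAATTcccattattctcagaggc
Atp5d: aaaACTACAATTcccagaatgacccacccg
Uqcr10: gaaACTACAATTcccataaagcagggcgcg
Mdh1: taaACTACAATTcccccaaaccccttcttc

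Chchd3 stood at 134, 137 and 131 CPM in control and 80.9, 70.5 and 75.1 CPM in knockout libraries (-0.83 ± 0.10, adjusted p = 0.00263). Mdh1 went from 607, 984 and 966 to 394, 387 and 342 CPM (-1.19 ± 0.19, adjusted p = 0.00688), with control 1 low among the controls. Atp5d had 230, 255 and 240 against 158, 169 and 130 CPM (-0.67), and Uqcr10 82.4, 66.1 and 62.0 against 44.6, 31.9 and 28.9 CPM (-1.0). Knockout and control libraries were separate for all 4 genes. Chchd3, Mdh1 and Atp5d kept their calls without any 1 library, and Uqcr10 lost it without knockout 2 (adjusted p = 0.0515). Pa2g4, the gene that rose (0.44 ± 0.13), lost its call without any 1 library other than control 1 (0.0729 to 0.122).

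The number lower was 13 with library size alone, 12 without control 3, 13 without knockout 2 and 12 without knockout 3. With the shorter form ACTACAA, 506 tested genes held 92 lower (18.2%) and 41 higher (8.10%), with a median of -0.18. Genes with other motifs leaned the other way: 18.7% higher and 3.93% lower among 433 with the NRF1 motif CGCATGCG, 20.2% and 4.48% among 357 with the YY1 motif AAGATGGCG, and 17.0% and 5.78% among 2024 with the ETS motif CCGGAAG. Genes with a CCAAT box, 8.57% higher and 11.2% lower, were close to all genes. The cyclic AMP element TGACGTCA (8.77% and 8.77%), the E-box CACGTG (12.7% and 8.76%) and the E2F site TTTCGCGC (6.67% and 6.67%) complete the 8 motifs. Promoters with these motifs also differ in base composition, whose part in these shares was not tested.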
